A study of Rattus norvegicus with 15 samples.

Results

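The genes described here are 91 developmental and neural crest transcription factor genes, chosen by their symbols from the 8621 genes listed in any of 3 pairwise tables of differentially expressed genes in rat adrenal medulla. The rule took every listed gene of the Hox, Sox, GATA, PHOX2, HAND, achaete-scute, LIM homeodomain, PAX, forkhead, NKX, AP-2, T-box, sine oculis (*Six5* and its relatives), DLX, POU, EBF, INSM, NeuroD and neurogenin, IRX, MEIS, PBX, ZIC, MSX, EYA, DACH, GLIS, ONECUT, PRRX, SNAI, TWIST, ZEB, MYC and MYT families, and it left out 2 genes by name. All 91 are protein-coding genes. A gene is in a table only if the authors' own comparison had called it, so the number of listed genes is not a result about the family. For PCC vs. WT 79 of the 91 genes were listed, while HYP vs. WT listed 51 and PCC vs. HYP 35, and 15 genes were in all 3 tables.

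RNA-seq was performed on total RNA from the snap-frozen, macrodissected adrenal medulla of 15 rats. The 5 WT rats were wild-type animals of 7 to 9.5 months, described as normal adrenal medulla. The 5 HYP rats were MENX animals of 4 to 5 months with hyperplastic adrenal medulla, and the 5 PCC rats were MENX animals of 7 to 9.5 months with pheochromocytoma, the tumor of the chromaffin cells. The study's methods divide the PCC animals further by tumor stage, but the labels do not say which sample is which, so the 5 were kept together. MENX rats carry a germline frameshift mutation in *Cdkn1b*, the gene of the cell cycle inhibitor p27, in every tissue, and all 3 groups are labelled with the strain Sprague-Dawely (Sprague-Dawley). The HYP rats were younger than the WT rats, so in HYP vs. WT the genotype and the age cannot be told apart. They were also younger than the PCC rats, so in PCC vs. HYP the stage and the age cannot be told apart.

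Chromaffin cells derive from the neural crest, in part through Schwann cell precursors that travel along nerves to the adrenal anlage. Their sympathoadrenal fate is set by a network of transcription factors in which HAND2, GATA2, GATA3, ISL1 and the AP-2 proteins act on one another and on the genes of catecholamine synthesis. Hox genes carry positional information along the body axis, and the MEIS and PBX homeodomain proteins bind DNA together with Hox proteins.

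Before the members, the state of the libraries has to be given. The reads counted on genes per library ranged from 16315018 to 23831269. The mRNA of *Cdkn1b* was at 44.6 to 72.1 CPM (counts scaled to library size) in WT, 82.5 to 124 CPM in HYP and 108 to 173 CPM in PCC, and since the mutation is a frameshift this level does not test the genotype. Chromaffin markers were present in every library: *Th*, the first enzyme of catecholamine synthesis, had a mean of 2246 CPM in WT, 4078 in HYP and 9344 in PCC. RNA of the adrenal cortex, which was cut away in dissection, was present too: *Cyp21a1*, an enzyme of corticosteroid synthesis, had a mean of 12924 CPM in WT, 7747 in HYP and 2990 in PCC. For a list of markers, the level in a library is the median over its genes of the CPM divided by the WT mean. Only genes that the authors' comparisons had called enter such a level, so it is not an independent measure of cell content. The cortex level (9 of 14 genes with values in all 15 libraries) was 0.645 to 1.32 in WT, 0.294 to 0.704 in HYP and 0.0231 to 0.366 in PCC. The chromaffin level (7 of 10 genes) was 0.94 to 1.53 in 4 WT libraries, 0.315 in WT replicate 5, 1.49 to 2.52 in HYP and 3.16 to 6.57 in PCC. WT replicate 5 thus had the lowest chromaffin level, although Dixon's test, given at the end, did not flag it. Results on sympathoadrenal genes are given with and without WT replicate 5. In such bulk samples fewer cells of a type and less RNA per cell cannot be told apart.

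**Figure D1:**
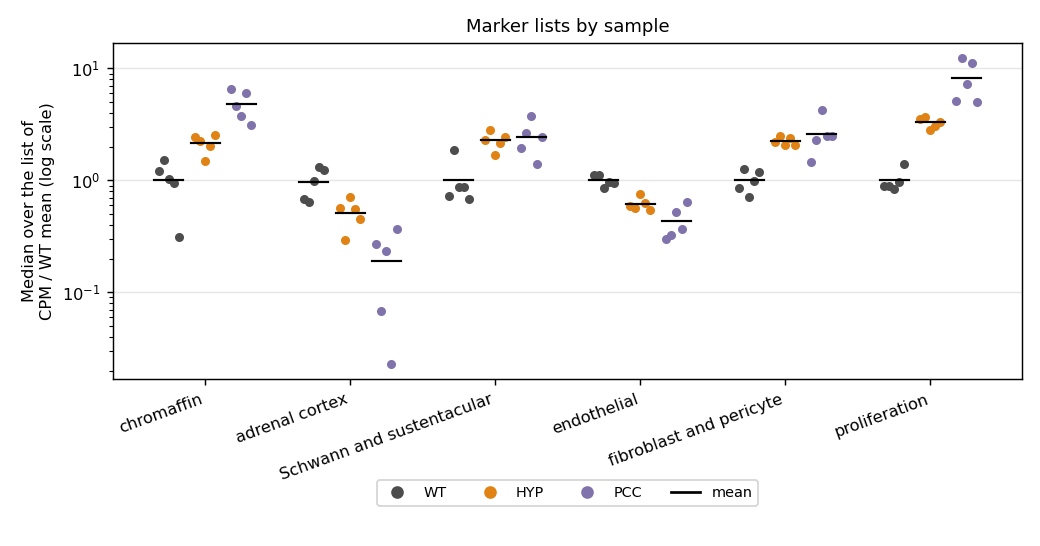
Levels of 6 marker lists in the 15 samples (y axis, median over the list of CPM divided by the WT mean, log scale; points are samples, bars are group means). The chromaffin and proliferation levels are higher in PCC than in WT without overlap, the cortex level is lower in PCC (0.0231 to 0.366) than in WT (0.645 to 1.32), and WT replicate 5 has the lowest chromaffin level (0.315).

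For PCC vs. WT, 69 of the 79 listed members passed the filter on low counts, and 57 of them (82.6%) were called at an adjusted *p* under 0.05 by the quasi-likelihood test of edgeR with the Benjamini-Hochberg method, the source of all adjusted *p*-values below unless another fit is named. Of all 7001 genes tested, 84.9% were called, so the share of called members is near the background. By direction, 34 members (49.3%) were higher and 23 (33.3%) were lower in PCC, against a background of 47.2% and 37.8%. The median log2 fold change was 1.06 over the 69 members and 0.45 over all genes tested. The split between directions depends on the scaling: when the libraries were scaled to their summed listed counts (the listed totals), moving the median of all genes by 0.49, 39 members were called higher and 11 lower, and when they were scaled to the library totals recovered from FPKM, moving it by 0.28, 38 and 13. In 47 members (68.1%) the PCC and WT samples did not overlap, against 64.7% of all genes tested.

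For HYP vs. WT, 47 of 51 listed members passed the filter. Here 39 (83.0%) were called, 28 higher (59.6%) and 11 lower (23.4%), against a background of 71.6% called, 39.0% higher and 32.6% lower. In 34 members (72.3%) the HYP and WT samples did not overlap, against 54.8% of all genes tested. The median log2 fold change was 1.22 over the members and −0.37 over all 4108 genes tested. Scaling to the listed totals (median shift 0.47) gave 31 higher and 4 lower. For PCC vs. HYP, 33 of 35 passed and 16 (48.5%) were called, 10 higher and 6 lower, against 44.8% of all 3148 genes tested, with 20.3% higher and 24.5% lower. Groups did not overlap in 20 members (60.6%), against 54.3% of all genes tested. Scaling to the listed totals (median shift 0.18) gave 11 higher and 4 lower. The 3 comparisons share samples, and each is therefore given with its own values. Of the 79 members that were tested in at least 1 comparison, 11 were called in none. When each sample was left out in turn, 42 of the 57 calls for PCC vs. WT, 24 of 39 for HYP vs. WT and 5 of 16 for PCC vs. HYP (*Dlx1*, *Dlx2*, *Dlx3*, *Pbx4* and *Tbx4*) were kept in every fit.

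Most sympathoadrenal regulators that were tested rose against WT. Of the 13 genes in this list, 9 were in a table. Of those, 5 of 5 tested rose in PCC vs. WT, 6 of 7 rose in HYP vs. WT, and 1 of 6 rose in PCC vs. HYP, against 47.2%, 39.0% and 20.3% of all genes tested that were called higher. The count for PCC vs. HYP is near that background. The median log2 fold changes of the list were 2.30, 1.67 and 0.61, against 0.45, −0.37 and 0.40 over all genes tested. None was called lower in any of the 3 comparisons by this test, and *Sox11* did not pass the filter. For PCC vs. HYP, *Tfap2b* was called lower in 1 of 8 alternative fits and in 1 of 10 fits with 1 sample omitted. The counts of this list cover only genes that the authors' own comparison had called. *Gata2*, *Gata3* and *Tfap2b* were not listed for PCC vs. WT, so they are not among the 5 tested there.

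*Phox2a*, a homeodomain factor and direct activator of the *Dbh* promoter, was at 139, 116, 69.2, 45.2 and 10.5 CPM in WT and at 196, 332, 271, 318 and 339 CPM in PCC. Every PCC sample was above every WT sample, with a log2 fold change of 1.88 ± 0.54 SE (adjusted *p* = 0.0198); the call was lost without WT replicate 4 (adjusted *p* = 0.0514), while leaving out WT replicate 5 gave a log2 fold change of 1.60 (adjusted *p* = 0.00441). In HYP *Phox2a* was at 219.7, 141, 93.2, 164 and 205 CPM, overlapping both other groups, and in a fit over all 15 samples HYP vs. WT gave a log2 fold change of 1.11 ± 0.46 SE (adjusted *p* = 0.152).

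*Hand2*, which acts with PHOX2 proteins on noradrenergic genes, was at 46.1, 48.5, 32.6, 20.6 and 6.05 CPM in WT and 64.8, 177, 158, 247 and 139 CPM in PCC, and rose by a log2 fold change of 2.30 ± 0.52 SE (adjusted *p* = 0.00613). In HYP its level of 89.3, 46.9, 77.9, 92.9 and 100.4 CPM gave a log2 fold change of 1.35 ± 0.43 SE (adjusted *p* = 0.0518), just short of the threshold, and 1.08 (adjusted *p* = 0.0143) without WT replicate 5. *Isl1*, a LIM homeodomain factor of sympathetic neurons, was at 25.1, 22.0, 17.0, 9.27 and 2.92 CPM in WT, 58.5, 83.4, 53.3, 58.9 and 74.0 CPM in HYP and 102, 133, 89.2, 116 and 85.8 CPM in PCC, with no overlap between the 3 groups. It rose by a log2 fold change of 2.73 ± 0.48 SE (adjusted *p* = 0.00150) in PCC and 2.04 ± 0.43 SE (adjusted *p* = 0.00794) in HYP against WT. Between PCC and HYP, *Phox2a*, *Hand2* and *Isl1* were not called, with log2 fold changes of 0.68, 0.79 and 0.54 and adjusted *p*-values of 0.120, 0.143 and 0.0885.

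The zinc finger genes *Gata2* and *Gata3*, both activators of the noradrenergic program, were listed for HYP vs. WT alone. *Gata2* was at 111, 92.6, 79.9, 48.3 and 18.5 CPM in WT and 227, 288, 166, 234 and 279 CPM in HYP, a log2 fold change of 1.71 ± 0.38 SE (adjusted *p* = 0.0101). *Gata3* was at 61.1, 68.7, 52.7, 33.6 and 14.0 CPM in WT and 137, 153, 124, 167 and 181 CPM in HYP, a log2 fold change of 1.67 ± 0.34 SE (adjusted *p* = 0.00652). In both genes all HYP samples were above all WT samples; their levels in PCC were not analysed here. *Tfap2b*, an AP-2 factor of the sympathoadrenal lineage, had higher levels in HYP than in WT or PCC. It was at 78.2, 62.0, 42.5, 27.3 and 8.89 CPM in WT, 95.1, 153, 101, 118 and 151 CPM in HYP and 68.6, 71.1, 38.7, 7.61 and 58.4 CPM in PCC. It rose in HYP vs. WT by a log2 fold change of 1.44 ± 0.43 SE (adjusted *p* = 0.0404), a call that was lost in 4 of 10 fits with 1 sample omitted (largest adjusted *p* = 0.0956). All 5 PCC samples lay below all 5 HYP samples, but PCC vs. HYP missed the threshold in this test (log2 fold change −1.45 ± 0.46 SE, adjusted *p* = 0.0758), and PCC vs. WT gave a log2 fold change of 0.16 ± 0.51 SE (adjusted *p* = 1) in the fit over all 15 samples. Without WT replicate 5 the log2 fold changes of PCC vs. WT were 2.03 (adjusted *p* = 0.00254) for *Hand2* and 2.46 (adjusted *p* = 0.00025) for *Isl1*. Those of HYP vs. WT without it were 1.78 (adjusted *p* = 0.000664) for *Isl1*, 1.47 (adjusted *p* = 0.00134) for *Gata2*, 1.44 (adjusted *p* = 0.000614) for *Gata3* and 1.18 (adjusted *p* = 0.0104) for *Tfap2b*.

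**Figure D2:**
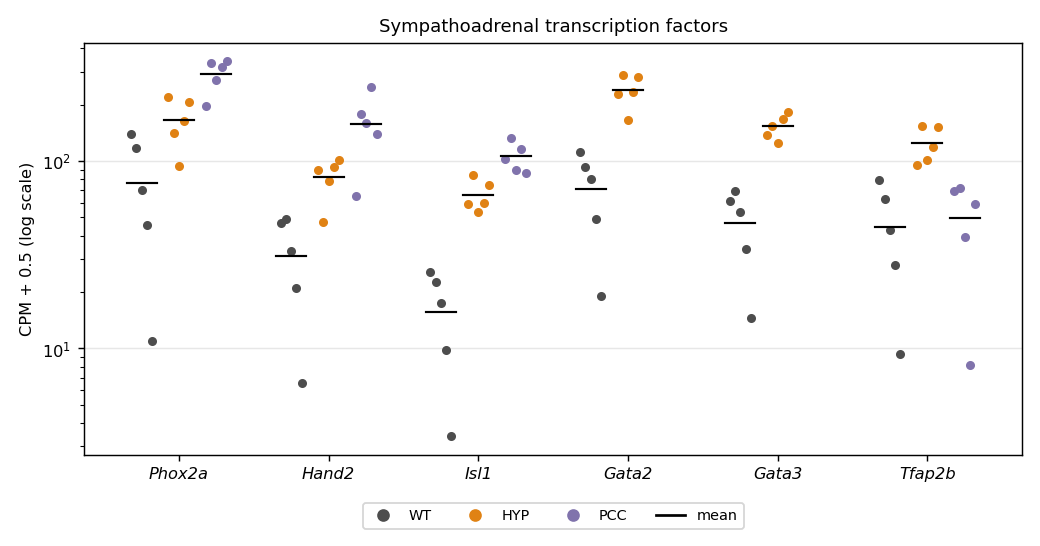
Levels of 6 sympathoadrenal transcription factor genes (x axis) in CPM + 0.5 (y axis, log scale); points are samples and bars are group means, and *Gata2* and *Gata3* have no PCC values here. *Isl1* steps up from WT to HYP to PCC without overlap, *Tfap2b* is highest in HYP, and the lowest WT point of each gene is WT replicate 5.

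The chromaffin marker level moved with these genes: its means in WT, HYP and PCC were 1.01, 2.15 and 4.84, and the low chromaffin level of WT replicate 5 (0.315) stood beside the lowest WT level of each of the 6 genes plotted. The chromaffin markers *Pnmt*, *Chga* and *Chgb* lacked values in some libraries and are not in this level. The part of chromaffin content in these changes was not tested. A list called sympathoadrenal target genes here was given the same tests. It holds genes of catecholamine synthesis and transport beside receptor and neuronal genes such as *Elavl3*, *Gap43* and *Stmn2*. Whether these factors act on each of them was not tested. Of 21 sympathoadrenal target genes, 14 were tested and all 14 were called higher for PCC vs. WT, 11 of 14 for HYP vs. WT, and 5 of 10 for PCC vs. HYP, with none lower, beside the same backgrounds of 47.2%, 39.0% and 20.3%. Their median log2 fold changes were 2.62, 1.70 and 1.02. They include *Ret*, the receptor of GDNF ligands, with means of 6.12, 14.7 and 177 CPM in WT, HYP and PCC, and *Alk*, a receptor tyrosine kinase of sympathetic neuroblasts, with 2.00, 7.94 and 21.0 CPM. This list overlaps the chromaffin markers in *Th*, *Dbh*, *Ddc*, *Slc18a1* and *Slc18a2*. It shares *Gfra3*, with means of 2.50, 6.33 and 2.31 CPM in WT, HYP and PCC, with the Schwann and sustentacular markers.

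The largest rises among the 91 genes were in T-box, DLX and EBF genes. For the 3 with the largest called, non-overlapping rises in PCC vs. WT that have an entry in the RefSeq promoter table, the 250 bases before the annotated start are shown, 5′ to 3′ on the gene's strand, in the RefSeq build GRCr8. Capitals mark 3 motifs searched on both strands: CAGCTG, the E-box that proneural helix-loop-helix factors prefer, TAATTA, the core of many homeodomain sites, and TGACAG, the site of MEIS-type proteins. *Tbx4* lies on the plus strand (chr10:71228306-71228555), *Dlx1* on the plus strand (chr3:76763614-76763863) and *Ebf3* on the minus strand (chr1:201544306-201544555).
Tbx4: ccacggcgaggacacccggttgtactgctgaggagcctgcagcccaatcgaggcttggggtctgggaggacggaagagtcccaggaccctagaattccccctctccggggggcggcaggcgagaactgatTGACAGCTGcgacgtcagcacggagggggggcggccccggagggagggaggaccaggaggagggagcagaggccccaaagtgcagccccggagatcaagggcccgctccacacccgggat
Dlx1: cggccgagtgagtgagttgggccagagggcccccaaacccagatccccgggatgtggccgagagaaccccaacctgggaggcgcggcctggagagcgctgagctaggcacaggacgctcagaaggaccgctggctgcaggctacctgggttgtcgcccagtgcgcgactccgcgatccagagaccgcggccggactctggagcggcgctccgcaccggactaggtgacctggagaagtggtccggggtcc
Ebf3: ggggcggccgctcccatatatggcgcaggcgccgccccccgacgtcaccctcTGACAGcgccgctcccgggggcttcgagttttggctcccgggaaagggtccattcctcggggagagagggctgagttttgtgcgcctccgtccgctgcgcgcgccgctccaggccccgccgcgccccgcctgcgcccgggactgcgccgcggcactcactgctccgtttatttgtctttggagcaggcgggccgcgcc
In the *Tbx4* window TGACAG begins 120 bases and CAGCTG 117 bases before the start, so the motifs share 3 bases. The *Ebf3* window holds TGACAG 198 bases before the start, and the *Dlx1* window holds none of the 3. The windows are 68.4%, 69.2% and 72.8% G or C. Over the 52 members with a promoter in the table, 11.5% held CAGCTG, 3.85% TAATTA and 15.4% TGACAG, against 11.97%, 4.86% and 15.8% of all 33469 promoters, so the members' shares are near those of all promoters. Such matches describe the letters and are not evidence of binding.

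*Tbx4*, a T-box gene best known for hindlimb and lung development, was lowest in WT and rose at each step. It was at 1.35, 2.92, 2.16, 2.50 and 0.925 CPM in WT, 35.2, 34.6, 23.9, 39.8 and 39.5 CPM in HYP and 81.6, 99.99, 145, 241 and 82.2 CPM in PCC. The lowest HYP sample was above the highest WT sample and the lowest PCC sample above the highest HYP sample. The fold change was 63.9 for PCC vs. WT (log2 fold change 5.999 ± 0.45 SE, adjusted *p* = 5.75e-05), 16.7 for HYP vs. WT (log2 fold change 4.07 ± 0.30 SE, adjusted *p* = 2.50e-05) and 3.37 for PCC vs. HYP (log2 fold change 1.75 ± 0.29 SE, adjusted *p* = 0.00715). Its neighbour *Tbx2*, a repressor of cell cycle inhibitors that lies beside it on chromosome 10 (Rn06, 73279119-73289921, against 73333119-73362783 for *Tbx4*), was at 8.22, 14.2, 7.02, 7.07 and 7.25 CPM in WT, 27.3, 34.0, 16.5, 45.2 and 43.2 CPM in HYP and 79.2, 47.6, 53.3, 61.9 and 50.6 CPM in PCC. *Tbx2* rose by a log2 fold change of 2.71 ± 0.26 SE (adjusted *p* = 9.46e-05) in PCC and 1.87 ± 0.30 SE (adjusted *p* = 0.00201) in HYP against WT, while PCC vs. HYP was not called (log2 fold change 0.69 ± 0.27 SE, adjusted *p* = 0.162).

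Of the 5 T-box genes listed, 4 rose in PCC vs. WT and *Tbx3* fell, beside 47.2% of all genes tested called higher and 37.8% lower. *Tbx20*, known from heart and motor neuron development, was at 26.7, 49.0, 32.8, 26.2 and 14.7 CPM in WT, 66.7, 162, 101, 158 and 171 CPM in HYP and 108, 139, 154, 116 and 98.3 CPM in PCC. Its HYP and PCC samples overlapped, and it rose by a log2 fold change of 2.00 ± 0.30 SE (adjusted *p* = 0.000646) in PCC and 2.08 ± 0.33 SE (adjusted *p* = 0.00193) in HYP. *Tbx6*, a gene of paraxial mesoderm, rose by a log2 fold change of 1.72 ± 0.49 SE (adjusted *p* = 0.0187) in PCC from a mean of 0.481 to 1.67 CPM, a call lost without WT replicate 4 (adjusted *p* = 0.0505). *Tbx3*, the paralogue of *Tbx2*, was at 255, 271, 378, 432 and 656 CPM in WT, 198, 225, 254, 304 and 262 CPM in HYP and 132, 54.3, 141, 31.1 and 220.1 CPM in PCC. It fell with a log2 fold change of −1.78 ± 0.47 SE (adjusted *p* = 0.0124), so the paralogues *Tbx2* and *Tbx3* moved in opposite directions in the same samples. The cortex level was lowest in PCC replicates 4 (0.0231) and 2 (0.0684), the PCC samples in which *Tbx3* was lowest, and the part of the cortex in this fall was not tested.

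The DLX genes, homeodomain factors of forebrain interneurons and of the branchial arches, were highest in PCC. *Dlx1* was at 1.78, 2.77, 1.32, 2.25 and 0.782 CPM in WT, 11.4, 9.17, 8.06, 8.65 and 6.84 CPM in HYP and 89.2, 27.4, 90.5, 118 and 41.4 CPM in PCC. *Dlx2*, its neighbour on chromosome 3 in opposite orientation, was at 1.39, 2.01, 1.21, 0.814 and 0.356 CPM in WT, 9.44, 6.70, 3.80, 6.27 and 8.23 CPM in HYP and 42.2, 19.2, 56.3, 61.9 and 26.3 CPM in PCC. Neither gene had overlapping groups, and in both PCC replicate 2 had the lowest and PCC replicate 4 the highest PCC level. *Dlx1* rose 39.5-fold in PCC vs. WT (log2 fold change 5.30 ± 0.49 SE, adjusted *p* = 9.46e-05), with a log2 fold change of 2.24 ± 0.31 SE (adjusted *p* = 0.00101) in HYP vs. WT and 2.91 ± 0.37 SE (adjusted *p* = 0.00244) in PCC vs. HYP. *Dlx2* rose 33.7-fold (log2 fold change 5.07 ± 0.49 SE, adjusted *p* = 9.64e-05), with a log2 fold change of 2.48 ± 0.39 SE (adjusted *p* = 0.00181) and 2.43 ± 0.35 SE (adjusted *p* = 0.00356) in the other comparisons.

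*Dlx3*, a gene of placenta, skin and tooth, was detected with at most 2 counts in any WT sample and with 47 to 72 counts in the PCC samples, that is 2.96, 2.28, 2.67, 3.41 and 2.41 CPM. With 3 counts per library as the floor it was at least 16.1-fold higher in PCC. Against HYP, where it was at 0.317, 0.110, 0.322, 0.0581 and 0.299 CPM, the change was a log2 fold change of 3.47 ± 0.41 SE (adjusted *p* = 0.00183). *Dlx5*, a gene of the neural plate border, was at 0.240, 0.0504, 0, 0 and 0 CPM in WT, 0.507, 0.165, 0.0645, 0.0581 and 0 CPM in HYP and 0.729, 1.99, 1.40, 0.615 and 1.07 CPM in PCC. It rose by a log2 fold change of 4.00 ± 0.77 SE (adjusted *p* = 0.00252) in PCC vs. WT and 2.74 ± 0.70 SE (adjusted *p* = 0.0354) in PCC vs. HYP, the latter call being lost in 6 of 10 fits with 1 sample omitted (largest adjusted *p* = 0.102). No read of *Dlx5* was counted in 3 of the 5 WT samples, so the fitted values depend on the handling of zeros: PCC vs. WT was 5.81 (adjusted *p* = 0.00118) without WT replicate 1, and PCC vs. HYP was 3.82 (adjusted *p* = 0.0146) without HYP replicate 1. *Onecut3*, a cut-homeodomain gene of neurons, did not pass the filter; it had at most 1 count in a WT sample and 5 to 14 counts in the PCC samples, which makes it at least 2.12-fold higher.

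**Figure D3:**
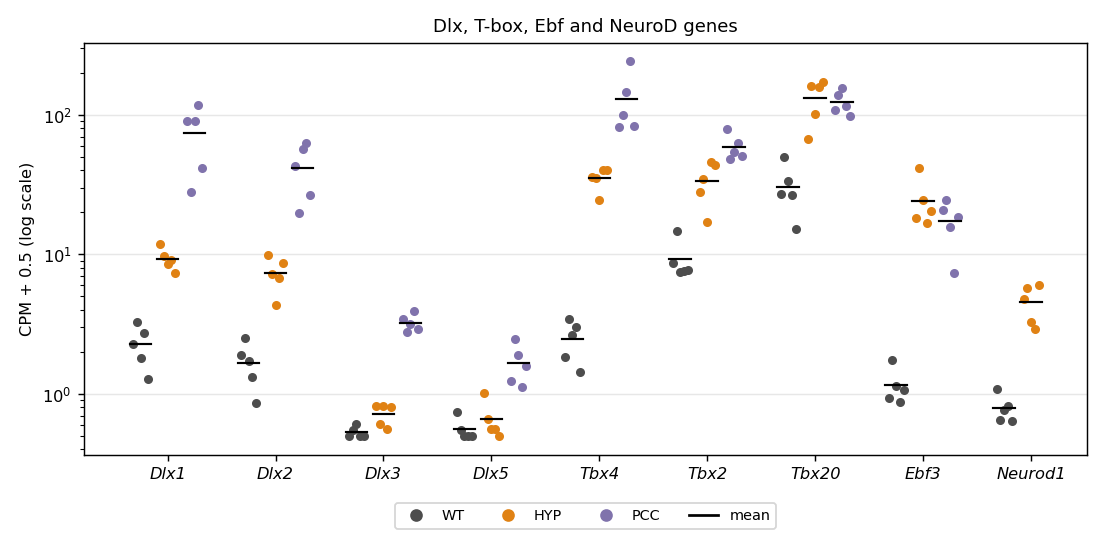
Levels of 9 DLX, T-box, EBF and NeuroD genes (x axis) in CPM + 0.5 (y axis, log scale; the lowest possible point is 0.5, which is no count); points are samples and bars are group means. *Dlx1*, *Dlx2* and *Tbx4* rise at each step without overlap, *Tbx20* and *Ebf3* reach their level in HYP, and *Neurod1* has no PCC values here.

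WT replicate 5, the library with the low chromaffin level (0.315), also had the lowest WT level of *Tbx4*, *Dlx1*, *Dlx2*, *Tbx20*, *Neurod1*, *Myt1l* and *Lhx4*, but not of *Ebf3*, *Neurod4* or *Tbx2*. Without it the log2 fold changes of PCC vs. WT were 5.81 (adjusted *p* = 3.74e-05) for *Tbx4*, 5.11 (adjusted *p* = 9.23e-05) for *Dlx1* and 4.84 (adjusted *p* = 7.37e-05) for *Dlx2*. The part of chromaffin content in these rises was not tested.

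The list of neuronal differentiation had called rises in both MENX groups. In this list of 57 genes 20 were in a table. Of those, 11 of 14 tested were higher in PCC vs. WT and 12 of 13 in HYP vs. WT, and none was lower, against 47.2% and 39.0% of all genes tested that were called higher. The 3 tested for PCC vs. HYP, *Dlx1*, *Dlx2* and *Dlx3*, were all higher, *Dlx3* being in the list as a DLX gene although it is best known outside the nervous system. *Ebf3*, a helix-loop-helix factor of maturing neurons, was at 0.433, 1.26, 0.633, 0.376 and 0.569 CPM in WT, 17.8, 40.9, 24.2, 16.3 and 19.96 CPM in HYP and 20.4, 23.9, 15.2, 6.86 and 18.0 CPM in PCC. It rose 34.3-fold in HYP vs. WT (log2 fold change 5.10 ± 0.39 SE, adjusted *p* = 2.92e-05) and 24.9-fold in PCC vs. WT (log2 fold change 4.64 ± 0.45 SE, adjusted *p* = 9.64e-05). HYP and PCC overlapped, with a log2 fold change of −0.50 ± 0.35 SE (adjusted *p* = 0.763) for PCC vs. HYP in the fit over all 15 samples.

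*Neurod1*, a neurogenic factor also of endocrine cells, was listed for HYP vs. WT alone, with 0.577, 0.151, 0.264, 0.313 and 0.142 CPM in WT, 4.31, 5.27, 2.77, 2.44 and 5.49 CPM in HYP and a log2 fold change of 3.68 ± 0.41 SE (adjusted *p* = 0.000292). *Neurod4* was at 1.15, 1.66, 1.79, 1.31 and 2.42 CPM in WT, 6.91, 9.83, 5.22, 7.38 and 8.53 CPM in HYP and 4.51, 8.74, 5.89, 12.1 and 8.85 CPM in PCC, with a log2 fold change of 2.13 ± 0.26 SE (adjusted *p* = 0.000538) in HYP and 2.26 ± 0.32 SE (adjusted *p* = 0.000531) in PCC. Both MENX groups were above WT and overlapped each other. *Myt1l*, a repressor of non-neuronal genes in neurons, was at 4.47, 8.06, 3.75, 3.13 and 1.99 CPM in WT, 11.0, 22.0, 12.7, 15.7 and 16.8 CPM in HYP and 19.1, 34.8, 29.5, 26.9 and 15.7 CPM in PCC. It rose by a log2 fold change of 1.80 ± 0.34 SE (adjusted *p* = 0.00463) in HYP and 2.51 ± 0.39 SE (adjusted *p* = 0.0008) in PCC. The other genes of its family, *Myt1* and *St18*, rose as well, by 2.43 ± 0.42 and 1.85 ± 0.41 in PCC and by 1.90 ± 0.37 and 1.77 ± 0.38 in HYP.

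*Lhx4*, a LIM homeodomain gene of pituitary and motor neurons, was at 4.09, 5.84, 3.11, 3.38 and 0.498 CPM in WT, 20.7, 19.9, 15.2, 14.9 and 17.6 CPM in HYP and 9.25, 34.0, 8.33, 3.36 and 13.0 CPM in PCC. All HYP samples were above all WT samples (log2 fold change 2.31 ± 0.42 SE, adjusted *p* = 0.00398), while in PCC replicate 4 the gene was within the WT range; PCC vs. WT gave a log2 fold change of 1.96 ± 0.67 SE (adjusted *p* = 0.0423), and the call was lost in 6 of 10 fits with 1 sample omitted (largest adjusted *p* = 0.151), with 1.25 (adjusted *p* = 0.151) without PCC replicate 2. *Sox2*, a factor of neural progenitors and of glia, rose in HYP vs. WT from 0.144, 0.756, 0.106, 0.188 and 0.0711 CPM in WT to 0.887, 1.70, 0.774, 0.987 and 1.25 CPM in HYP (log2 fold change 2.01 ± 0.52 SE, adjusted *p* = 0.0204), a call lost without WT replicate 1 (adjusted *p* = 0.0520), without WT replicate 3 (adjusted *p* = 0.0531) and without WT replicate 4 (adjusted *p* = 0.0516). Without WT replicate 2 its HYP value was 3.00 (adjusted *p* = 0.00136). With all samples kept, PCC vs. WT of *Sox2* gave a log2 fold change of 1.69 ± 0.64 SE (adjusted *p* = 0.0657). It was called in 2 of 10 fits with 1 sample omitted (smallest adjusted *p* = 0.00611). *Sox9*, of neural crest and glia, likewise rose in HYP (log2 fold change 2.11 ± 0.58 SE, adjusted *p* = 0.0271), a call lost without WT replicate 3 (adjusted *p* = 0.0689) and without HYP replicate 2 (adjusted *p* = 0.0605), and gave a log2 fold change of 1.68 ± 0.69 SE (adjusted *p* = 0.0902) in PCC vs. WT. The Schwann and sustentacular marker level (8 of 10 genes) had means of 1.00, 2.28 and 2.45 in WT, HYP and PCC, and its part in the *Sox2* and *Sox9* values was not tested. Within that list 2 genes, *S100b* among them, fell in PCC vs. WT while 5 rose, so it did not move as one.

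The Hox genes divided by cluster. Of 17 Hox genes in the tables, 13 were tested for PCC vs. WT: of the HoxB genes 5 of 7 were lower and none higher, of the HoxC genes 3 of 4 were higher and none lower, and of the HoxD genes 1 of 2 was lower. Over all genes tested for PCC vs. WT, 37.8% were called lower and 47.2% higher. The only HoxA gene, *Hoxa5*, did not pass the filter. *Hoxb9*, which among the members had the highest mean level per kilobase in WT, was at 134, 155, 153, 149 and 83.9 CPM in WT, 39.6, 38.3, 64.1, 51.3 and 33.9 CPM in HYP and 7.52, 1.46, 5.19, 2.18 and 26.5 CPM in PCC. The 3 groups did not overlap, and PCC replicate 5 stood above the other PCC samples. The gene fell with a log2 fold change of −4.01 ± 0.71 SE (adjusted *p* = 0.00157) in PCC vs. WT, a 16.1-fold lower level, and −1.62 ± 0.22 SE (adjusted *p* = 0.000956) in HYP vs. WT. Without PCC replicate 5 the PCC vs. WT value was −5.08 (adjusted *p* = 0.000132). PCC vs. HYP gave a log2 fold change of −2.51 ± 0.67 SE (adjusted *p* = 0.0425), a call that was lost in 9 of 10 fits with 1 sample omitted (largest adjusted *p* = 0.106); without PCC replicate 5 the log2 fold change was −3.56 (adjusted *p* = 0.00210).

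*Hoxb8* was at 63.7, 83.7, 77.2, 82.8 and 78.2 CPM in WT, 49.6, 41.6, 38.0, 41.5 and 34.4 CPM in HYP and 17.1, 14.5, 9.40, 2.13 and 26.3 CPM in PCC. *Hoxb6* was at 101, 96.6, 85.6, 71.2 and 71.2 CPM in WT, 56.2, 26.7, 29.2, 40.2 and 32.2 CPM in HYP and 10.3, 5.24, 16.3, 4.11 and 41.4 CPM in PCC. In both genes each MENX group was below WT without overlap, and *Hoxb6* in PCC replicate 5 was within the HYP range. *Hoxb8* fell with a log2 fold change of −2.49 ± 0.48 SE (adjusted *p* = 0.00250) in PCC and −0.97 ± 0.14 SE (adjusted *p* = 0.00111) in HYP, and *Hoxb6* with −2.49 ± 0.55 SE (adjusted *p* = 0.00534) and −1.27 ± 0.21 SE (adjusted *p* = 0.00255). Without PCC replicate 5 the PCC value of *Hoxb6* was −3.28 (adjusted *p* = 0.000305). In the fit over all 15 samples, in which PCC adds to the estimate of the spread, *Hoxb6*, *Hoxb8* and *Hoxb9* were not called for HYP vs. WT, with adjusted *p*-values of 0.122, 0.183 and 0.0788.

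Along the cluster on chromosome 10 of the Rn06 build, from *Hoxb9* (84119884-84123390, plus strand) to *Hoxb3* (84182118-84195796, plus strand), the log2 fold changes of PCC vs. WT were −4.01 ± 0.71 for *Hoxb9*, −2.49 ± 0.48 for *Hoxb8*, −1.38 ± 0.47 for *Hoxb7*, −2.49 ± 0.55 for *Hoxb6*, −0.95 ± 0.39 for *Hoxb5*, −0.74 ± 0.27 for *Hoxb4* and −1.04 ± 0.24 for *Hoxb3*. *Hoxb5* and *Hoxb4* missed the threshold (adjusted *p* = 0.0940 and 0.0581), and the *Hoxb7* call (adjusted *p* = 0.0417) was lost in 7 of 10 fits with 1 sample omitted (largest adjusted *p* = 0.0964). All 7 values kept their sign under every scaling. With scaling to the listed totals, *Hoxb3* and *Hoxb7* were no longer called. For HYP vs. WT *Hoxb7* was not called (−0.37, adjusted *p* = 0.211) and its sign turned with scaling to the listed totals.

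*Hoxc6*, in the HoxC cluster on chromosome 7, was at 8.37, 7.86, 6.12, 4.70 and 5.19 CPM in WT and 14.2, 10.7, 11.8, 18.1 and 12.2 CPM in PCC, a log2 fold change of 1.02 ± 0.25 SE (adjusted *p* = 0.00880) without overlap. *Hoxc4* rose by a log2 fold change of 1.19 ± 0.37 SE (adjusted *p* = 0.0281), with a range of 1.85 to 7.65 CPM in WT and of 8.23 to 15.9 CPM in PCC, and the call was lost without PCC replicate 4 (adjusted *p* = 0.0521), without WT replicate 3 (adjusted *p* = 0.0660) and without WT replicate 4 (adjusted *p* = 0.0653). *Hoxc5*, between them in the cluster, missed the threshold although its groups did not overlap (log2 fold change 1.06 ± 0.38 SE, adjusted *p* = 0.0537). *Hoxc9* was at 0.721, 0.554, 0.158, 0.188 and 0 CPM in WT and 3.33, 0.728, 1.82, 5.01 and 0.172 CPM in PCC, where replicate 5 was within the WT range; it gave a log2 fold change of 2.64 ± 0.89 SE (adjusted *p* = 0.0416), a call lost in 7 of 10 fits with 1 sample omitted (largest adjusted *p* = 0.107). *Hoxc8*, listed for HYP vs. WT alone, rose by a log2 fold change of 0.92 ± 0.28 SE (adjusted *p* = 0.0435), a call lost in 7 of 10 fits with 1 sample omitted (largest adjusted *p* = 0.101). In the HoxD cluster on chromosome 3, *Hoxd3* fell with a log2 fold change of −1.05 ± 0.32 SE (adjusted *p* = 0.0256) in PCC, a call that was lost with scaling to the listed totals and without PCC replicate 1 (adjusted *p* = 0.0588), without PCC replicate 2 (adjusted *p* = 0.0531) and without WT replicate 1 (adjusted *p* = 0.0704), and *Hoxd9* gave −0.92 ± 0.42 SE (adjusted *p* = 0.139). *Hoxd4* and *Hoxd8*, tested for HYP vs. WT, gave a log2 fold change of −0.58 ± 0.21 SE (adjusted *p* = 0.0764) and −0.53 ± 0.20 SE (adjusted *p* = 0.0943).

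**Figure D4:**
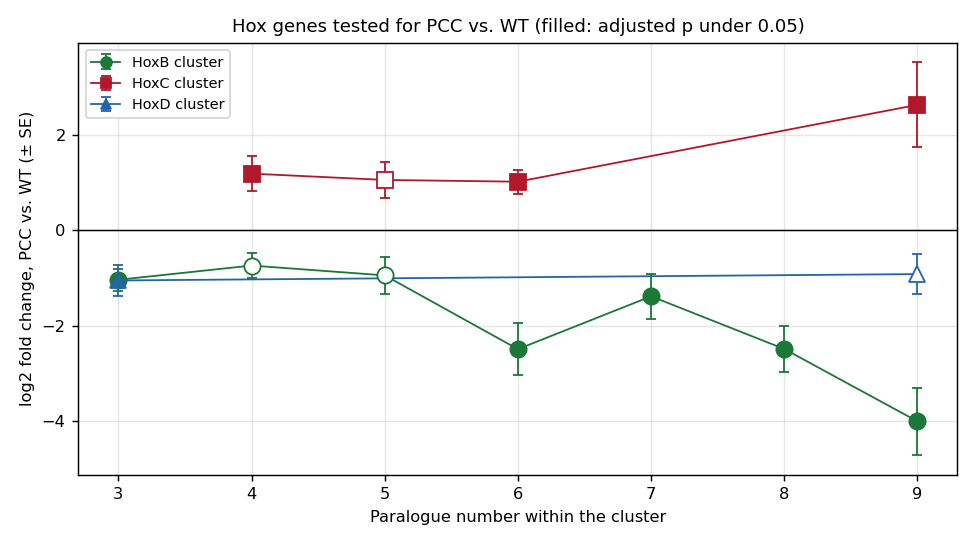
Log2 fold change of PCC vs. WT (y axis, points with SE bars) of the 13 Hox genes tested, by paralogue number (x axis) and cluster; filled points were called at an adjusted p under 0.05 and lines join genes of 1 cluster. The HoxB values are all below 0, from −0.74 for Hoxb4 to −4.01 for Hoxb9, and the HoxC values are all above 0, from 1.02 to 2.64.

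The TALE homeodomain genes, partners of Hox proteins, were mixed: for PCC vs. WT 4 of 9 tested were lower (*Meis1*, *Meis2* and *Pbx4* among them) and 3 higher (*Meis3*, *Pbx2* and *Pbx3*). These counts stand beside 37.8% called lower and 47.2% called higher over all genes tested. *Pbx4* was at 54.6, 39.3, 39.7, 35.8 and 35.3 CPM in WT, 32.3, 15.3, 26.6, 25.8 and 23.8 CPM in HYP and 9.11, 10.5, 13.1, 9.36 and 13.4 CPM in PCC. The 3 groups did not overlap, and *Pbx4* fell with a log2 fold change of −1.91 ± 0.20 SE (adjusted *p* = 0.000124) in PCC vs. WT, −0.79 ± 0.20 SE (adjusted *p* = 0.0217) in HYP vs. WT and −1.29 ± 0.23 SE (adjusted *p* = 0.00891) in PCC vs. HYP. The HYP vs. WT call was lost without WT replicate 1 (adjusted *p* = 0.0561) and with scaling to the listed totals. *Meis1* was at 217, 256, 196, 269 and 123 CPM in WT, 115, 133, 233, 129 and 108 CPM in HYP and 91.5, 60.3, 73.8, 56.4 and 78.0 CPM in PCC. It fell with a log2 fold change of −1.60 ± 0.24 SE (adjusted *p* = 0.000709) in PCC vs. WT and −1.12 ± 0.25 SE (adjusted *p* = 0.0226) in PCC vs. HYP, a call lost without PCC replicate 2 (adjusted *p* = 0.0562), without PCC replicate 3 (adjusted *p* = 0.0527) and without HYP replicate 4 (adjusted *p* = 0.0519). *Meis2* was at 179, 184, 235, 501 and 554 CPM in WT, 177, 99.8, 344, 257 and 183 CPM in HYP and 129, 22.5, 68.5, 9.41 and 107 CPM in PCC, and fell with a log2 fold change of −2.30 ± 0.63 SE (adjusted *p* = 0.0164) in PCC vs. WT.

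The PCC samples differed among themselves in the genes called against WT. Of the 23 members called lower in PCC vs. WT, 12 had their lowest PCC level in PCC replicate 4, which had the lowest cortex level (0.0231), and 11 had their highest PCC level in PCC replicate 5, which had the highest (0.366). Of the 34 called higher, 17 had their highest PCC level in PCC replicate 4 and 2 in PCC replicate 5, while 11 had their lowest in PCC replicate 2 and 9 in PCC replicate 5. Of the 14 cortex markers, 8 of 11 tested were called lower in PCC vs. WT and 3 of 8 in HYP vs. WT, and none was called higher. The shares of all genes tested that were called lower were 37.8% and 32.6%. The steroidogenic factor gene *Nr5a1* had a mean of 375 CPM in WT, 162 in HYP and 57.8 in PCC. The endothelial level (5 of 10 genes) had means of 1.00, 0.617 and 0.432 in WT, HYP and PCC. Of its 6 genes tested for PCC vs. WT 4 fell, and *Vwf*, the gene of von Willebrand factor, rose, with means of 15.1, 22.0 and 43.6 CPM. The part of the cortex and of the vessels in the falls was not tested.

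**Figure D5:**
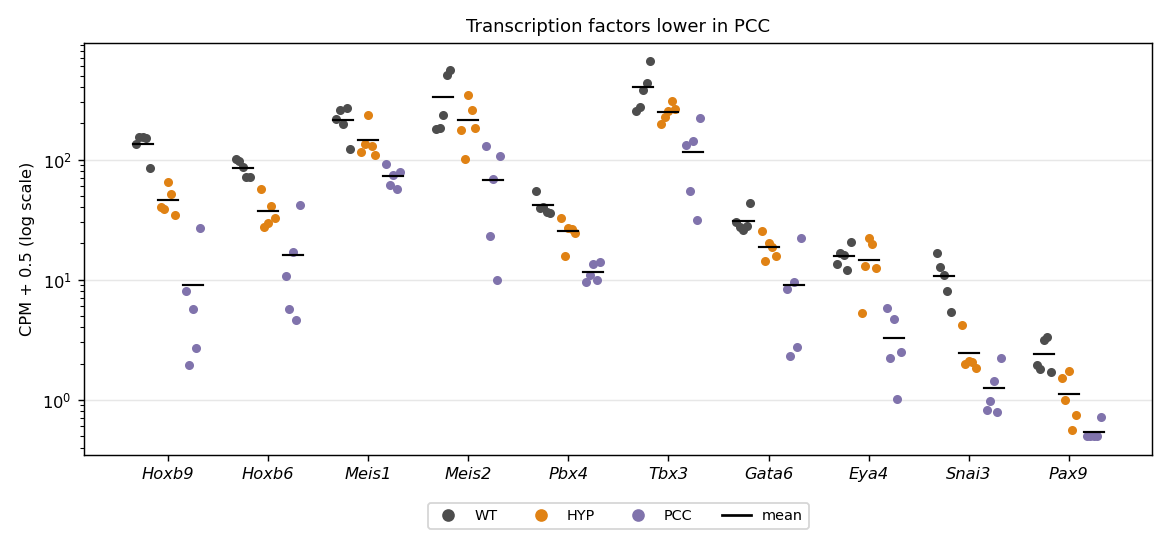
Levels of 10 transcription factor genes that fell in PCC vs. WT (x axis) in CPM + 0.5 (y axis, log scale; 0.5 is no count); points are samples and bars are group means. In each gene the PCC points lie below the WT points, and the HYP mean lies between the WT and PCC means.

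*Gata6*, a GATA factor of the adrenal cortex and of mesoderm, was at 29.8, 26.8, 25.5, 27.2 and 42.9 CPM in WT, 24.7, 13.8, 19.7, 18.1 and 15.2 CPM in HYP and 7.93, 1.80, 9.03, 2.27 and 21.9 CPM in PCC. It fell with a log2 fold change of −1.84 ± 0.56 SE (adjusted *p* = 0.0268) in PCC vs. WT and −0.79 ± 0.20 SE (adjusted *p* = 0.0207) in HYP vs. WT, both calls being lost with scaling to the listed totals. The first was lost without PCC replicate 1 (adjusted *p* = 0.0630) and without PCC replicate 3 (adjusted *p* = 0.0554) and the second without HYP replicate 2 (adjusted *p* = 0.0529) and without HYP replicate 5 (adjusted *p* = 0.0574). Without PCC replicate 5 the PCC vs. WT value was −2.56 (adjusted *p* = 0.00235). In the fit over all 15 samples *Gata6* was not called for HYP vs. WT (log2 fold change −0.73 ± 0.48 SE, adjusted *p* = 0.639). The sign of its HYP vs. WT value was opposite to that of *Gata2* and *Gata3*. Of the list of adrenocortical transcription factors, 2 of 3 tested, *Gata6* among them, fell in PCC vs. WT, beside 37.8% of all genes tested. *Foxo1* gave a log2 fold change of −0.72 ± 0.30 SE (adjusted *p* = 0.0939).

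In the network of EYA, DACH and sine oculis factors, which sets cell fate in cranial placodes, kidney and muscle, the members split. *Eya1*, a transcriptional coactivator with phosphatase activity, was at 8.18, 14.5, 10.9, 7.32 and 3.56 CPM in WT, 33.1, 65.9, 47.1, 41.1 and 48.4 CPM in HYP and 40.9, 80.8, 36.1, 12.5 and 42.8 CPM in PCC, and rose by a log2 fold change of 2.34 ± 0.32 SE (adjusted *p* = 0.000984) in HYP and 2.22 ± 0.48 SE (adjusted *p* = 0.00486) in PCC. PCC replicate 4 was within the WT range. *Eya4* was at 12.9, 16.2, 15.7, 11.6 and 19.9 CPM in WT, 4.82, 12.5, 21.5, 19.2 and 11.9 CPM in HYP and 5.33, 1.75, 4.21, 0.520 and 2.02 CPM in PCC. It fell with a log2 fold change of −2.48 ± 0.48 SE (adjusted *p* = 0.00265) in PCC vs. WT and −2.44 ± 0.57 SE (adjusted *p* = 0.0274) in PCC vs. HYP, a call lost in 5 of 10 fits with 1 sample omitted (largest adjusted *p* = 0.0777). *Dach1* rose by a log2 fold change of 1.65 ± 0.37 SE (adjusted *p* = 0.00549) in PCC and 1.23 ± 0.28 SE (adjusted *p* = 0.0118) in HYP, with 4.66, 5.69, 5.33, 2.63 and 2.63 CPM in WT, 6.85, 12.02, 8.32, 11.7 and 12.4 CPM in HYP and 10.1, 8.98, 13.4, 25.02 and 9.97 CPM in PCC. *Dach2*, on the X chromosome, was lower in PCC than in HYP (log2 fold change −1.81 ± 0.49 SE, adjusted *p* = 0.0425), a call lost in 9 of 10 fits with 1 sample omitted (largest adjusted *p* = 0.0989), with −2.41 (adjusted *p* = 0.0120) without PCC replicate 1. *Six5* fell with a log2 fold change of −0.82 ± 0.29 SE (adjusted *p* = 0.0492) in PCC vs. WT, a call lost in 8 of 10 fits with 1 sample omitted (largest adjusted *p* = 0.143).

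Factors of the epithelial-mesenchymal transition did not move together: of 5 tested for PCC vs. WT, *Twist2* rose, *Snai3* and *Zeb2* fell, and *Snai1* and *Twist1* gave a log2 fold change of −0.99 ± 0.40 SE (adjusted *p* = 0.0850) and 1.07 ± 0.39 SE (adjusted *p* = 0.0592). *Twist2*, a helix-loop-helix factor of mesenchyme, was at 3.37, 2.27, 2.74, 1.31 and 2.49 CPM in WT, 2.98, 5.00, 1.55, 3.37 and 1.75 CPM in HYP and 15.8, 5.05, 7.77, 10.2 and 8.46 CPM in PCC. It rose by a log2 fold change of 1.92 ± 0.35 SE (adjusted *p* = 0.00175) in PCC vs. WT and 1.56 ± 0.40 SE (adjusted *p* = 0.0349) in PCC vs. HYP, where the call was lost in 6 of 10 fits with 1 sample omitted (largest adjusted *p* = 0.0925). The fibroblast and pericyte level (5 of 10 genes) had means of 1.00, 2.25 and 2.61 in WT, HYP and PCC, and its part was not tested. Its genes did not move as one. *Rgs5* had means of 23.3, 89.2 and 1090 CPM in WT, HYP and PCC. *Pdgfra*, the only one of them with a lower mean in PCC than in WT, had 6.70, 10.7 and 4.31 CPM. *Snai3* was at 16.3, 12.3, 10.4, 7.58 and 4.91 CPM in WT, 3.68, 1.48, 1.61, 1.57 and 1.35 CPM in HYP and 0.319, 0.485, 0.936, 0.284 and 1.72 CPM in PCC, without overlap between WT and either MENX group. It fell 14.0-fold in PCC vs. WT (log2 fold change −3.81 ± 0.55 SE, adjusted *p* = 0.000573) and 5.57-fold in HYP vs. WT (log2 fold change −2.48 ± 0.38 SE, adjusted *p* = 0.00167). *Zeb2*, a repressor that the neural crest needs, fell with a log2 fold change of −1.43 ± 0.30 SE (adjusted *p* = 0.00423), with a range of 49.9 to 87.1 CPM in WT and of 10.8 to 38.7 CPM in PCC.

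Of the 16 genes of neural crest specification, 4 were in a table. For PCC vs. WT *Dlx5* rose and *Msx1*, a homeobox gene of the neural plate border, fell with a log2 fold change of −1.91 ± 0.56 SE (adjusted *p* = 0.0227), from 2.64, 3.32, 1.58, 2.63 and 0.711 CPM in WT to 0.501, 0.146, 0.982, 0.284 and 1.07 CPM in PCC, a call lost without PCC replicate 1 (adjusted *p* = 0.0536), without WT replicate 2 (adjusted *p* = 0.0565) and without WT replicate 4 (adjusted *p* = 0.0502) and with scaling to the listed totals. *Tfap2a*, listed for HYP vs. WT, did not pass the filter, with 0.174 to 0.634 CPM in HYP. *Pax9*, a paired box gene of pharyngeal endoderm and sclerotome, had the largest fall of the members in PCC vs. WT. It was at 1.44, 1.31, 2.64, 2.82 and 1.21 CPM in WT, 1.01, 0.494, 1.23, 0.0581 and 0.250 CPM in HYP and 0, 0, 0, 0 and 0.215 CPM in PCC. No read was counted in 4 of the 5 PCC samples, so the fitted change (log2 fold change −5.21 ± 0.82 SE, adjusted *p* = 0.000851) depends on the handling of zeros, and it was −8.21 (adjusted *p* = 0.000445) without PCC replicate 5. In HYP vs. WT *Pax9* gave a log2 fold change of −1.71 ± 0.54 SE (adjusted *p* = 0.0497), a call lost in 7 of 10 fits with 1 sample omitted (largest adjusted *p* = 0.120). The 250 bases before its start in GRCr8 (chr6:79921551-79921800, plus strand), shown as the counterpart to the genes that rose, hold none of the 3 motifs and are 56.0% G or C.
Pax9: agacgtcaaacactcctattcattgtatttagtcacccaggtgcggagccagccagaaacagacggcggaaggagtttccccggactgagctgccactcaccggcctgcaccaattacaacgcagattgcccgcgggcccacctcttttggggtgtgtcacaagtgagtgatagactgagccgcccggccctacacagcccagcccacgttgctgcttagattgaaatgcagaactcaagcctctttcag

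Among the forkhead genes, 3 of 9 tested were higher and 4 lower in PCC vs. WT, beside 47.2% and 37.8% of all genes tested. *Foxm1*, which drives the genes of mitosis, was at 5.39, 4.63, 5.75, 6.64 and 4.196 CPM in WT, 11.7, 9.22, 8.12, 8.77 and 8.38 CPM in HYP and 12.2, 21.6, 18.5, 19.7 and 11.2 CPM in PCC. It rose by a log2 fold change of 1.62 ± 0.26 SE (adjusted *p* = 0.000865) in PCC and 0.73 ± 0.19 SE (adjusted *p* = 0.0225) in HYP against WT, the latter call being lost without WT replicate 2 (adjusted *p* = 0.0526) and without HYP replicate 2 (adjusted *p* = 0.0532), and PCC vs. HYP gave 0.70 ± 0.22 SE (adjusted *p* = 0.0711). All 10 proliferation markers were called higher in PCC and in HYP against WT, where 47.2% and 39.0% of all genes tested were. The proliferation level had means of 1.00, 3.29 and 8.19 in WT, HYP and PCC, and its part was not tested. *Foxc1*, a factor of mesenchyme and vessels, was at 5.10, 5.74, 2.85, 2.82 and 2.56 CPM in WT, 5.83, 4.39, 4.38, 4.12 and 4.44 CPM in HYP and 12.8, 8.01, 8.19, 15.8 and 16.4 CPM in PCC. It rose by a log2 fold change of 1.64 ± 0.34 SE (adjusted *p* = 0.00388) in PCC vs. WT and 1.27 ± 0.27 SE (adjusted *p* = 0.0181) in PCC vs. HYP, the latter call lost without HYP replicate 3 (adjusted *p* = 0.0535) and without HYP replicate 4 (adjusted *p* = 0.0566). *Foxp3*, the factor of regulatory T cells, fell with a log2 fold change of −0.99 ± 0.26 SE (adjusted *p* = 0.0121) in PCC and −0.79 ± 0.23 SE (adjusted *p* = 0.0343) in HYP, calls that were lost with scaling to the listed totals. The HYP call was also lost in 7 of 10 fits with 1 sample omitted (largest adjusted *p* = 0.0858) and in the fit over all 15 samples (adjusted *p* = 0.0585). *Foxp4* fell with a log2 fold change of −1.29 ± 0.25 SE (adjusted *p* = 0.00240) and −0.97 ± 0.21 SE (adjusted *p* = 0.00871), with the same loss under that scaling.

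Among the remaining members, *Glis1*, a zinc finger gene related to GLI, rose in each comparison, by a log2 fold change of 1.66 ± 0.25 SE (adjusted *p* = 0.0007) for PCC vs. WT, 0.69 ± 0.21 SE (adjusted *p* = 0.0450) for HYP vs. WT and 0.78 ± 0.21 SE (adjusted *p* = 0.0460) for PCC vs. HYP. It was at 2.50, 3.73, 3.75, 2.32 and 3.27 CPM in WT, 5.58, 5.16, 4.19, 5.23 and 5.99 CPM in HYP and 8.52, 8.83, 8.70, 14.5 and 9.19 CPM in PCC, without overlap between groups. Its call for HYP vs. WT was lost in 8 of 10 fits with 1 sample omitted (largest adjusted *p* = 0.124) and that for PCC vs. HYP in 9 of 10 fits with 1 sample omitted (largest adjusted *p* = 0.116). *Sox12*, of the SoxC group expressed in progenitors, rose by a log2 fold change of 1.32 ± 0.31 SE (adjusted *p* = 0.00675) in PCC vs. WT, with a range of 5.63 to 15.9 CPM in WT and of 17.4 to 35.8 CPM in PCC, and 0.69 ± 0.19 SE (adjusted *p* = 0.0478) in PCC vs. HYP, a call lost in 8 of 10 fits with 1 sample omitted (largest adjusted *p* = 0.117).

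Cofactors of these factors moved in both directions. Of 28 cofactor genes, 5 of 14 tested rose and 6 fell for PCC vs. WT, 2 rose and 6 fell of 11 for HYP vs. WT, and 2 of 5 fell for PCC vs. HYP. Over all genes tested, 47.2%, 39.0% and 20.3% were called higher in these comparisons and 37.8%, 32.6% and 24.5% lower. With scaling to the listed totals 6 rose and 4 fell for PCC vs. WT, and 5 rose and 1, *Id4*, fell for HYP vs. WT. *Id3* and *Id4*, inhibitors of helix-loop-helix factors, fell at both stages against WT, *Id4* from a mean of 17.9 CPM in WT to 5.49 in HYP and 2.17 in PCC. *Lmo4*, a LIM-only protein, fell from 228 CPM in WT to 89.6 in HYP and 26.3 in PCC. *Zfpm2*, a partner of GATA factors, rose from 2.61 CPM in WT to 9.57 in HYP and 6.59 in PCC.

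Per kilobase of gene length, which allows genes to be compared, the leading members changed between the groups. In WT the highest mean levels in CPM per kilobase were those of *Hoxb9* (144), *Tbx3* (132) and *Hoxb6* (126), over the 89 members with WT values. In PCC the leading ones were those of *Hand2* (244) and *Phox2a* (182), over 82 members, and in HYP those of *Hand2* (126), *Phox2a* (103) and *Tbx3* (82.3), over 70. *Hoxb9* was at 9.15 CPM per kilobase in PCC and *Hand2* at 47.7 in WT. In WT 72 of 89 members had a mean of at least 1 CPM, and in PCC 66 of 82.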

How the data were processed

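The data are RNA-seq counts of 15 rats in 3 groups of 5. The authors mapped reads to Rn06 with HISAT2 2.0.5, counted them with featureCounts 1.5.0-p3, per the submitters' notes, and compared groups with DESeq2; the annotation release and strand setting are not given in the sources used here. The authors deposited, for each pair of groups, the genes with an adjusted *p* under 0.05, with raw counts, a signal (counts divided by size factors), FPKM, fold changes and p-values. The authors' deposited FPKM values served to recover library totals (genes with at least 20 counts), the signal to recover size factors, and the deposited p-values only to recover how many genes were tested (18790, 18057 and 17454). The fold changes hold the authors' own comparison and were not used. All columns were assigned to samples (0 left unused).

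Groups were compared with edgeR 4.0.16 (limma 3.58.1, R 4.3.3; TMM, filterByExpr, glmQLFTest) on each whole table. *P*-values were adjusted by the Benjamini-Hochberg method with the authors' number of tested genes as the total, and genes were called under 0.05. That total makes the adjustment an upper bound for the *p*-values as fitted. The *p*-values themselves come from fits to genes the authors had already called, so their scaling and spread rest on selected genes. SE is the log2 fold change divided by the square root of F. CPM uses TMM over all 15 samples. The filter removed 10 members from PCC vs. WT, 4 from HYP vs. WT and 2 from PCC vs. HYP. The script was tested on simulated data in which most genes were unchanged, unlike the genes of these tables. Alternatives were 3 other scalings, no filter or at least 10 counts in every sample, DESeq2 1.42.0, a replicate block, 1 fit over all samples, at least 2-fold change and leaving out each sample. Nothing in the labels pairs samples across groups, and deviations of same-numbered samples correlated at −0.236 to 0.256, so the numbers do not pair them. Per the study's methods each sample is 1 animal. A few genes that enter the counts are not reported by name here. Promoters come from RefSeq, and 52 of 91 members matched by symbol.

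The members and lists were chosen with earlier results of these data known. Named were listed sympathoadrenal, Hox, EYA, DACH and sine oculis, *Gata6* and *Foxm1* genes, up to 10 largest non-overlapping called changes per direction and comparison with at least 1 CPM in a group, and genes that no sample of one group held above 3 counts and every sample of the other did. *Foxo1*, *Foxp4*, *Meis3*, *Msx1*, *Myt1*, *Pbx2*, *Pbx3*, *Snai1*, *Sox2*, *St18*, *Tbx6*, *Tbx20*, *Tfap2a*, *Twist1*, *Zeb2* and the partner and marker genes were named after their values were seen. Markers of leukocytes (*Cd163* of 10 genes, higher in both MENX groups than in WT), adipocytes (0 of 6 listed) and erythroid cells (0 of 5 listed) could not be scored.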

Additional observations from a re-analysis of the deposited data

Results flagged for a closer look

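In 14 of 164 groups of 5 values, 1 sample lay far from the other 4 by Dixon's test, which chance alone does in about 1 of 20 groups. *Hoxb9* in PCC replicate 5 was at 26.5 CPM, with the next PCC sample at 7.52. In PCC replicate 4, *Dach1* was at 25.02 CPM (next 13.4) and *Glis1* at 14.5 CPM (next 9.19). In WT replicate 5, *Gata6* was at 42.9 CPM (next 29.8), *Six5* at 53.6 CPM (next 28.9), and the proliferation level was 1.41 (next 0.959). *Pbx4* in WT replicate 1 was at 54.6 CPM (next 39.7) and *Tbx2* in WT replicate 2 at 14.2 CPM (next 8.22). In WT replicate 2 the Schwann and sustentacular level was 1.85 (next 0.876). Among the HYP samples, *Meis1* was at 233 CPM in replicate 3 (next 133), *Foxc1* at 5.83 CPM (next 4.44) and *Snai3* at 3.68 CPM (next 1.61) in replicate 1, and *Foxp3* was lowest in replicate 2 at 2.20 CPM (next 3.22). The level of the sympathoadrenal target genes in PCC replicate 2 was 6.86 (next 4.72).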

How the results depend on the processing

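For PCC vs. WT the 34 calls higher became 32 to 39 under the other scalings and 27 to 40 under the other filters, and the 23 lower became 11 with scaling to the listed totals and 13 with the recovered library totals. For HYP vs. WT the 11 lower became 4 with the listed totals, 6 with the recovered library totals, 4 in 1 fit over all 15 samples and 5 when at least 2-fold change was asked. For PCC vs. HYP the 10 higher and 6 lower became 4 and 1 with the replicate block, and DESeq2 called 15 lower. The replicate block left 34 higher and 19 lower for PCC vs. WT and 21 and 8 for HYP vs. WT. With 1 sample left out, the counts ranged from 30 to 36 higher and 18 to 26 lower for PCC vs. WT, 20 to 29 and 8 to 15 for HYP vs. WT, and 4 to 12 and 1 to 7 for PCC vs. HYP. In PCC vs. HYP the higher count was 5 without HYP replicate 3, 4 without HYP replicate 4, and 6 without HYP replicate 5, PCC replicate 2 or PCC replicate 3. The lower count was 2 without HYP replicates 2, 3 or 5 or PCC replicate 3, and 1 without HYP replicate 4 or PCC replicate 2. One value reversed: *Hoxb7* for HYP vs. WT was 0.10 with scaling to the listed totals against −0.37. The causes were not tested. Since each table holds only genes the authors had called, shares of called genes say little, and genes with a few counts, such as *Pax9* in PCC, are limited by depth.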
